A study of Mus musculus with 6 samples.

Results

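The mRNAs of the RNA exosome subunits were read in fibroblasts depleted of CNOT3 and in control fibroblasts, before and after transcription was blocked. All probe sets to which the platform annotation gives exactly 1 gene symbol, and whose symbol is Exosc1, Exosc2, Exosc3, Exosc4, Exosc5, Exosc7, Exosc8, Exosc9, Exosc10 or Dis3, were taken. This gave 19 probe sets of 10 genes, out of 45037 probe sets in all, of which 34945 have 1 symbol and cover 18193 genes. Of the 19 probe sets, 18 reached the median of all probe sets in mean log2 signal at 0 h, and the same 18 were near background on no array. Near background stands for a value below the 25th percentile of the array in question, and this percentile ranged from 13.6 to 19.8.

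The cells were primary mouse embryonic fibroblasts (MEFs) carrying CNOT3 loxP/loxP alleles. Cre retrovirus gave the CNOT3-depleted cultures, called CNOT3KD MEFs, and a mock retrovirus gave the control MEFs, which the labels list as wild type although the methods describe the same floxed alleles. Both were kept in puromycin for 2 days, so each is a selected, infected population of many cells and not a clone. Total RNA was taken before (0 h) and at 6 and 12 h after the transcription inhibitor actinomycin D (Act. D) was added, and each of the 6 conditions was hybridized to 1 array. No condition was repeated, so no value has a replicate error, no test was run, and the sizes given describe these arrays.

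The RNA exosome degrades and trims RNA from its 3′ end, in the nucleus and in the cytoplasm. Its core is a barrel, made of a ring of subunits related to RNase PH with a cap of RNA-binding subunits on top, and in animals the barrel itself has no catalytic activity. In the nucleus the exonucleases EXOSC10 and DIS3, attached at either end, do the cutting, and the barrel guides RNA to them. In the cytoplasm the exosome is a route by which an mRNA body is removed after its poly(A) tail has been shortened. CNOT3 belongs to the CCR4-NOT complex, which shortens poly(A) tails.

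In CNOT3KD MEFs the subunit mRNAs were kept through 12 h of Act. D, whereas most were lost in control MEFs. At the brightest probe set of each gene (by mean log2 signal), the signal left at 12 h, expressed as percent of the signal its own culture had at 0 h, had a median of 102% in CNOT3KD MEFs and 26.5% in control MEFs. At or under 50% of the 0 h signal at 12 h were 0 of 10 genes in CNOT3KD MEFs, where 16.8% of all 11062 genes at or above the median signal were, and 8 of 10 in control MEFs, where 38.0% of all genes were. Over all those genes the medians at 12 h were 95.1% in CNOT3KD MEFs and 72.8% in control MEFs. The arrays are scaled to nearly the same trimmed mean, between 494 and 497, so a percentage left is relative to the other RNAs of its array and can exceed 100%.

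**Figure D1:**
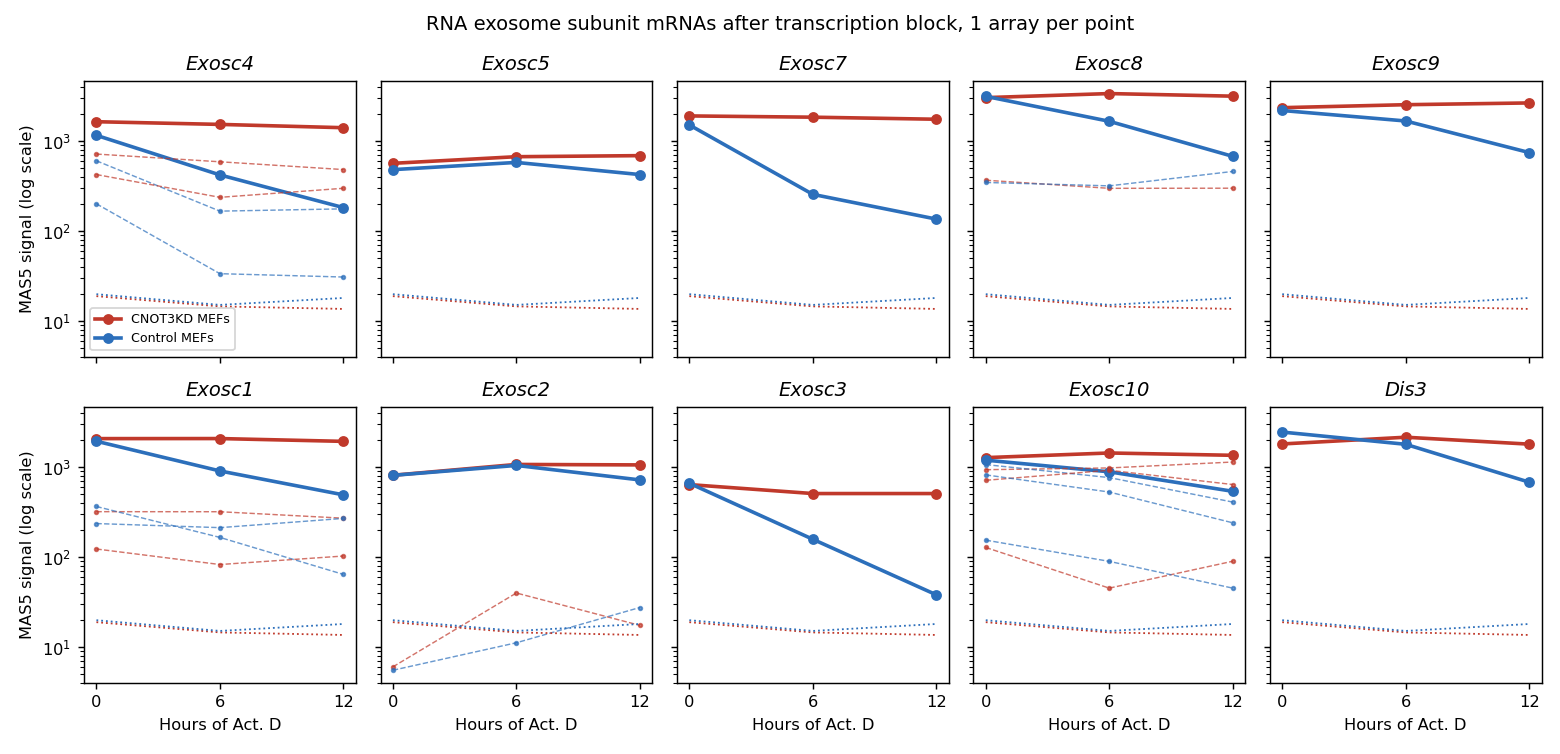
MAS5 signal (log axis) against hours of Act. D for each exosome subunit, 1 array per point, with CNOT3KD MEFs in red and control MEFs in blue. Solid lines are the brightest probe set, dashed lines the other probe sets, and dotted lines the 25th percentile of each array. The solid red and blue lines start close together at 0 h and separate by 12 h, except for Exosc2 and Exosc5, where they stay near each other.

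Among the ring subunits, Exosc7 had the least signal left in control MEFs. Its signal was 1901, 1841 and 1746 at 0, 6 and 12 h in CNOT3KD MEFs, against 1509.5, 255 and 135 in control MEFs. The signals of the CNOT3KD arrays lay close together, while the control signals at 6 and 12 h were far below that at 0 h, with 91.9% left at 12 h in CNOT3KD MEFs and 8.97% in control MEFs. The fraction left was 5.73 times that of control at 6 h and 10.2 times at 12 h.

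Exosc5, which encodes another ring subunit, had the most similar fractions left in the cultures. Its signal was 565, 669 and 687.5 at 0, 6 and 12 h in CNOT3KD MEFs, against 480.3, 578 and 423 in control MEFs. The signals of both cultures were highest after Act. D had been added, at 12 h in CNOT3KD MEFs and at 6 h in control MEFs. The signal left was 118% at 6 h in CNOT3KD MEFs and 120.3% in control MEFs, the only subunit with less left in CNOT3KD MEFs at that time in the signals as deposited, and 122% against 88.1% at 12 h.

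Exosc4 and Exosc9 encode ring subunits that pair with each other in the human complex. Exosc4 had 1639, 1530.0 and 1406 at 0, 6 and 12 h in CNOT3KD MEFs, against 1156, 419.6 and 182 in control MEFs. Its signal was higher in CNOT3KD MEFs at every time, 1.42 times at 0 h, the highest ratio of the 10 genes at that time. Its 2 other probe sets showed the same order at every time, with 0 h ratios of 1.19 (1460679_at) and 2.12 (1437712_x_at). The last of these, whose suffix marks probes that can match other transcripts as well, had 424, 236 and 298 in CNOT3KD MEFs against 200.2, 33.5 and 30.7 in control MEFs.

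Exosc9 had 2348, 2534 and 2650.5 at 0, 6 and 12 h in CNOT3KD MEFs, against 2184, 1670.0 and 744 in control MEFs. Most of its loss in control MEFs came late, with 76.5% left at 6 h and 34.1% at 12 h, beside 108% and 113% in CNOT3KD MEFs. The fraction left was 1.41 times that of control at 6 h and 3.31 times at 12 h.

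Exosc8, the last ring subunit read here, had 3037, 3369.7 and 3153 at 0, 6 and 12 h in CNOT3KD MEFs, against 3137, 1656 and 675 in control MEFs. At 12 h this was 104% of the 0 h signal in CNOT3KD MEFs and 21.5% in control MEFs. A dimmer probe set annotated to Exosc8 (1420115_at) did not show this loss, with 366, 298 and 299 in CNOT3KD MEFs against 346, 317 and 459 in control MEFs. What this probe set measures was not tested. Exosc6, which encodes a further ring subunit and was not among the 10 genes, was near background on all 6 arrays.

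Of the cap subunits, which carry RNA-binding S1 domains, Exosc3 had the least signal left at 12 h of all 10 genes in control MEFs. Its signal was 638, 507 and 507 at 0, 6 and 12 h in CNOT3KD MEFs, against 660.0, 157 and 37.9 in control MEFs. The 0 h signals were thus close, and at 12 h 79.5% was left in CNOT3KD MEFs and 5.75% in control MEFs. The fraction left was 13.8 times that of control at 12 h, the widest gap among the subunits at that time. This ratio rests on the control signal of 37.9, which is below the median of that array, 62.1. At 6 h the fraction left was 3.33 times that of control.

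Exosc1 had 2071, 2073 and 1929.7 at 0, 6 and 12 h in CNOT3KD MEFs, against 1936, 905 and 491 in control MEFs. This left 93.2% at 12 h in CNOT3KD MEFs and 25.3% in control MEFs. A dimmer probe set (1432052_at) had 319, 318 and 269.8 in CNOT3KD MEFs, against 364, 165 and 64.0 in control MEFs, in the same pattern. The dimmest (1453359_at) differed from both, with 123, 82.4 and 102 in CNOT3KD MEFs and 235, 212 and 268 in control MEFs, and at 0 h it was 0.521 times the control signal. With the dimmer Exosc8 probe set it is 1 of only 2 of the 18 probe sets above background that kept a larger fraction in control MEFs at both 6 and 12 h.

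Exosc2 had 810.0, 1069 and 1056 at 0, 6 and 12 h in CNOT3KD MEFs, against 808, 1042 and 719 in control MEFs. The cultures were nearly equal at 0 and at 6 h, and parted at 12 h, with 130.4% left in CNOT3KD MEFs and 89.0% in control MEFs. In the signals as deposited, it and Exosc5 were the 2 genes that kept over 50% at 12 h in control MEFs. With each array divided by the median of its ribosomal protein probe sets, Exosc2 kept 47.6% and Exosc5 47.2%. Divided by the array median, they kept 111.0% and 109.9%. Its other probe set (1446994_at), the one under the median, had signals between 5.5 and 39.7 and is not read further.

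Both catalytic subunits kept their signals in CNOT3KD MEFs and had an intermediate loss in control MEFs. Exosc10, the nuclear exonuclease, had 1273, 1433 and 1350.3 at 0, 6 and 12 h in CNOT3KD MEFs, against 1193, 885 and 537 in control MEFs. The signal left at 12 h was 106% in CNOT3KD MEFs and 45.0% in control MEFs. The probe sets 1431832_x_at and 1423587_a_at gave 122% and 89.7% at 12 h in CNOT3KD MEFs, against 38.3% and 29.3% in control MEFs. The dimmest (1437294_at) had 127, 45.0 and 89.6 in CNOT3KD MEFs against 154, 89.3 and 45.0 in control MEFs, which puts less signal left in CNOT3KD MEFs at 6 h and more at 12 h.

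Dis3, which encodes the exonuclease and endonuclease at the base of the barrel, had 1806, 2145.5 and 1797 at 0, 6 and 12 h in CNOT3KD MEFs, against 2448, 1790.2 and 679 in control MEFs. It was the subunit with the lowest 0 h ratio, 0.738, and the order of the cultures turned round under Act. D, since CNOT3KD MEFs had the higher signal at 6 and 12 h. At 12 h 99.5% was left in CNOT3KD MEFs and 27.7% in control MEFs.

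**Figure D2:**
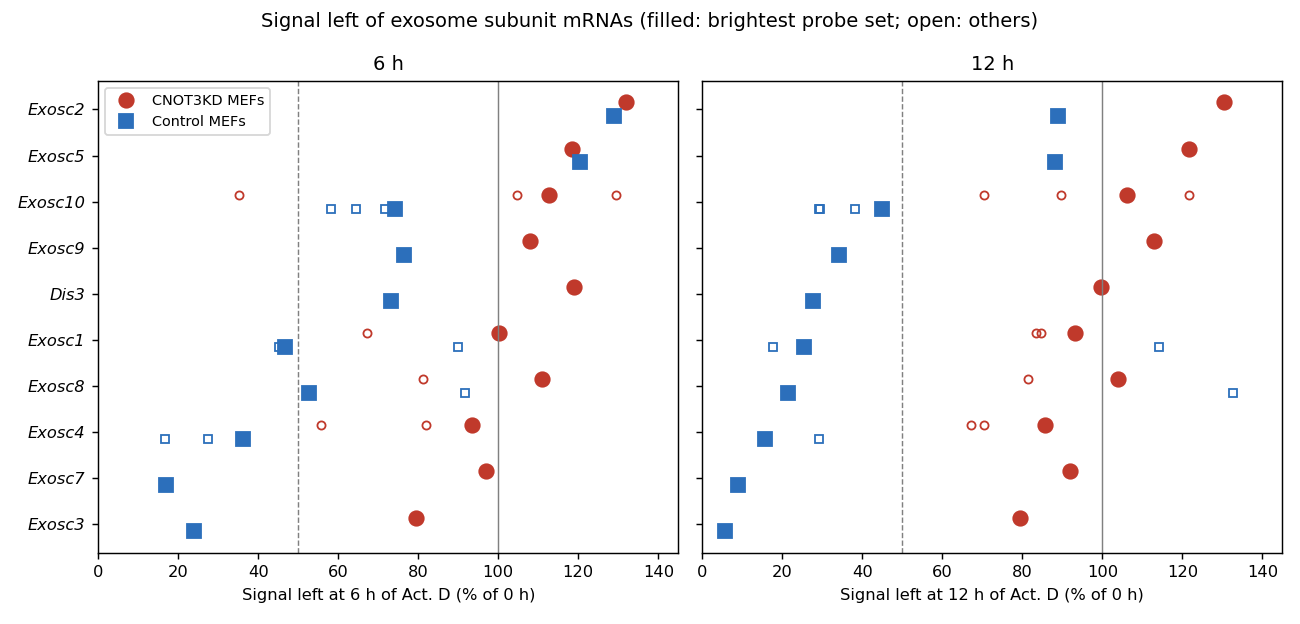
Signal left (percent of the 0 h signal of the same culture) at 6 h and at 12 h of Act. D for each subunit, with CNOT3KD MEFs as red circles above control MEFs as blue squares. Filled symbols are the brightest probe set and open symbols the others, without the Exosc2 probe set near background, and the lines mark 50% and 100%. At 12 h all 10 filled circles lie between 79.5% and 130.4%, and the filled squares between 5.75% and 89.0%.

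Read by subunit, more of the 0 h signal was left in CNOT3KD MEFs than in control MEFs for 9 of 10 genes at 6 h, beside 54.6% of all 11062 genes, and for 10 of 10 at 12 h, beside 55.7%. The CNOT3KD fraction reached 2 times the control fraction for 5 genes at 6 h, beside 17.3% of all genes, and for 8 at 12 h, beside 25.8%. In CNOT3KD MEFs the signal exceeded the 0 h signal for 7 genes at 6 h (46.6% of all genes) and 5 at 12 h (44.9%). In control MEFs it did so for 2 genes at 6 h (42.9% of all genes) and 0 at 12 h (38.6%). Each array was also divided by the median of its cytosolic ribosomal protein probe sets, which was 18523 to 22618 in CNOT3KD MEFs and 19367 to 36187 in control MEFs. In CNOT3KD MEFs 4 genes then exceeded the 0 h signal at 6 h and 1 at 12 h. With each array divided by its median, 10 did at 6 h and 10 at 12 h. Such a divisor changes the percentages of all genes by the same factor, and the shares of all genes were not computed under it.

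Stabilized is used here of a gene that met 3 size limits. The 0 h signal (mean log2 of the cultures) had to reach the median of all probe sets, the 6 h signal in CNOT3KD MEFs had to be 0.5 to 2 times that at 0 h, and the fraction left in CNOT3KD MEFs had to be 2 or more times the control fraction at 6 h and also at 12 h. This held for Exosc1, Exosc3, Exosc4, Exosc7 and Exosc8, which is 5 of 10 genes, while 10.6% of all 11062 genes met the rule. With the cultures exchanged it held for 0 of 10 genes and for 0.479% of all genes. Over probe sets, 9 of the 19 met it, namely all 3 of Exosc4, 2 of the 3 of Exosc1, and 1 each of Exosc3, Exosc7, Exosc8 and Exosc10, beside 8.89% of 22519 probe sets at or above the median, and 0 of the 19 met the exchanged rule, beside 0.857%. Exosc9, Exosc10 and Dis3 missed the rule at their brightest probe set through the 6 h value alone, where the fraction left was 1.41, 1.52 and 1.63 times that of control. Quantile normalization of the arrays left Exosc1 and Exosc4 short of the rule, with 1.85 and 1.90 times at 6 h, and 3 of 10 genes met it.

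Stabilization is log2 of the CNOT3KD fraction left over the control fraction left, taken as the mean of 6 and 12 h. It had a median of 1.38 over the 10 genes and 0.13 over all genes at or above the median signal. It was 2.94 for Exosc7, 2.76 for Exosc3, 1.91 for Exosc4, 1.67 for Exosc8, 1.49 for Exosc1, 1.27 for Dis3, 1.11 for Exosc9 and 0.92 for Exosc10. Exosc7 lay above 98.8% and Exosc3 above 98.4% of all genes. Exosc2, at 0.29, and Exosc5, at 0.22, lay above 56.4% and 53.4% of all genes, close to the middle, and Exosc5 was -0.21 after quantile normalization. Neighbours in this order have no replicate spread by which to be told apart.

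**Figure D3:**
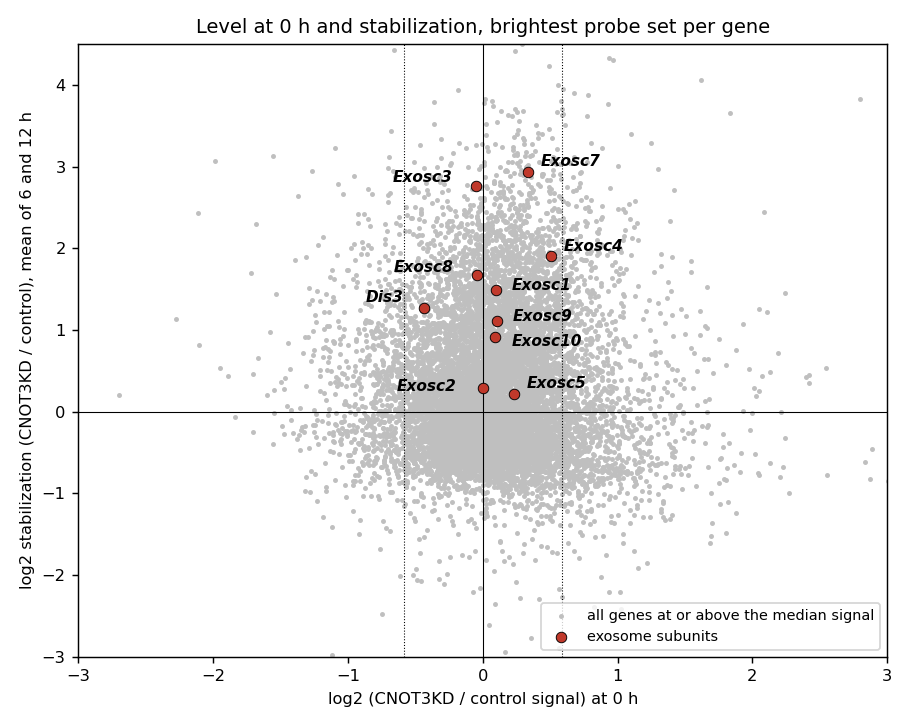
Log2 ratio of CNOT3KD to control signal at 0 h (horizontal axis) against log2 stabilization (vertical axis), each gene at its brightest probe set, with the 10 exosome subunits in red over 11062 genes at or above the median signal in grey. Dotted lines mark 1.5-fold at 0 h, and 21 genes lie outside the axes. The subunits lie within the dotted lines and above 0 on the vertical axis, from 0.22 (Exosc5) to 2.94 (Exosc7).

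Before Act. D the subunits, like most genes, were within 1.5-fold between the cultures at their brightest probe sets. There 0 of 10 genes were more than 1.5-fold higher in CNOT3KD MEFs, where 12.4% of all genes were, and 0 were more than 1.5-fold lower, where 6.77% of all genes were. For 10 genes these counts are near the shares of all genes. The 0 h ratio of Dis3 lay above 11.3% of all genes and that of Exosc4 above 83.9%, the lowest and highest of the subunits. Over all 19 probe sets, 1 was higher, 1437712_x_at of Exosc4 (2.12 times), and 1 lower, 1453359_at of Exosc1 (0.521 times). The share over all probe sets was not computed. The median log2 ratio of CNOT3KD to control signal was 0.10 over the subunits and 0.08 over all genes. It ranged from -0.44 (Dis3) to 0.50 (Exosc4), and after Exosc4 the highest were Exosc7 with a ratio of 1.26 and Exosc5 with 1.18. With each array divided by its median, 1 gene, Exosc4, passed 1.5-fold with a log2 ratio of 0.59, and over all genes 1824 were higher and 575 lower in place of 1372 and 749. For Exosc1, Exosc2, Exosc3, Exosc8 and Exosc10 the sign of the 0 h ratio depended on the processing. Under the scalings and with the median over probe sets, their log2 ratios lay between -0.19 and 0.19. Single probe sets reached -0.94 for Exosc1 (1453359_at) and -0.27 for Exosc10 (1437294_at).

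The windows around the transcription start of the subunits with the highest and the lowest 0 h ratio among those with a listed window are shown, since 0 h is the time before transcription was blocked. They run from 250 bases before to 50 bases after the start, on the strand of the gene, from RefSeq on GRCm38.p6. Exosc7 lies at chr9:123112981-123113280 (plus strand) and Dis3 at chr14:99099721-99100020 (minus strand). Capitals mark matches on either strand to the GC box GGGCGG, the CCAAT box CCAAT and the ETS motif CCGGAAG.
Exosc7: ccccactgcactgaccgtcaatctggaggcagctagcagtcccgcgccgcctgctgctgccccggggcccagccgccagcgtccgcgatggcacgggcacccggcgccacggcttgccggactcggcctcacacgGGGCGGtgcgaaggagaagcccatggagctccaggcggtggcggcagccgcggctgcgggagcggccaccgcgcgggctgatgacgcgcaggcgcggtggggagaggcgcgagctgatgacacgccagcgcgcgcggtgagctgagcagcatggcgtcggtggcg
Dis3: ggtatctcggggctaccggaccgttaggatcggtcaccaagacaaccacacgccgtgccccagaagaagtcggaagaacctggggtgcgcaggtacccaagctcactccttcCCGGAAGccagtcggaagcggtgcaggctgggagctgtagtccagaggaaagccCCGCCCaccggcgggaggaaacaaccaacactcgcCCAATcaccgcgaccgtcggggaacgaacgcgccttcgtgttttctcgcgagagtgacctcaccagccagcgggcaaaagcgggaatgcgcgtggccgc
The Exosc7 window holds 1 match, a GC box, and the Dis3 window holds 1 match each to the ETS motif, the GC box and CCAAT. Over the 9 windows of 8 subunits, a GC box was found for 7 genes, all but Exosc2, and in 35.7% of 32851 windows of mouse genes. CCAAT was found for Exosc1, Exosc2, Exosc5 and Dis3 (37.4% of windows), the ETS motif for Exosc3, Exosc10 and Dis3 (8.86%), and TATAAA for 0 of 8 (13.6%). In Exosc1 a pair of CCAAT matches on opposite strands and a pair of GC boxes overlap each other. A match is a description of the letters and not of a bound site.

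Helpers of the exosome and some other RNA decay factors, together called cofactors here, were read by the same rule. The list held 26 genes, of which 25 were at or above the median signal. These genes take in the TRAMP, NEXT and PAXT adaptors that bring nuclear RNA to the exosome, the Ski complex that feeds it mRNA in the cytoplasm, the cap-binding proteins and related nucleases. Also listed were Supv3l1, Pnpt1, Eri1 and Dis3l2, which are not helpers of the exosome itself. Of the 25, 8 met the rule for stabilization, beside 10.6% of all genes, and Supv3l1 and Eri1 were among these 8. A stabilization above 0 was found for 20, beside 55.9%. The median stabilization was 1.19. At 0 h 0 passed 1.5-fold upward, beside 12.4% of all genes, and 0 downward, beside 6.77%. At or under 50% at 12 h were 6 in CNOT3KD MEFs, beside 16.8% of all genes, and 14 in control MEFs, beside 38.0%.

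The highest stabilization of the list, 3.41, was that of Mphosph6, which encodes a nuclear protein that helps the exosome process ribosomal RNA. Its signal was 2048, 889 and 786 at 0, 6 and 12 h in CNOT3KD MEFs, against 1539.98, 48.8 and 71.5 in control MEFs. At 12 h 38.4% was left in CNOT3KD MEFs and 4.64% in control MEFs, and the gene did not meet the rule because its 6 h signal in CNOT3KD MEFs was 43.4% of that at 0 h. Tent4a, a noncanonical poly(A) polymerase, followed with 2.79, with 44.4% left at 12 h in CNOT3KD MEFs and 3.06% in control MEFs. Ncbp1, the large subunit of the nuclear cap-binding complex, had 2.53, with 85.2% left in CNOT3KD MEFs and 8.0% in control MEFs.

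At the other end, Srrt, a partner of the cap-binding complex, had a stabilization of -0.69 and Pabpn1, the nuclear poly(A)-binding protein, -0.58. Pabpn1 had 94.5% left at 12 h in CNOT3KD MEFs and 154% in control MEFs. At 0 h the highest ratio was that of Rbm7, the RNA-binding subunit of NEXT, at 1.44, and the lowest that of Tent4b, the TRAMP poly(A) polymerase, at 0.791. Named after their values were seen, the Ski complex genes Skiv2l, Ttc37 and Wdr61 had stabilizations of 0.07, 0.05 and 0.87, and 0 of these 3 met the rule. Of them Wdr61 alone was under 50% at 12 h in control MEFs, with 119% left in CNOT3KD MEFs and 49.7% in control MEFs. Also named after its value was seen, Mtrex, the helicase that serves the nuclear exosome, had 2.11, with 88.0% left at 12 h in CNOT3KD MEFs and 12.7% in control MEFs.

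**Figure D4:**
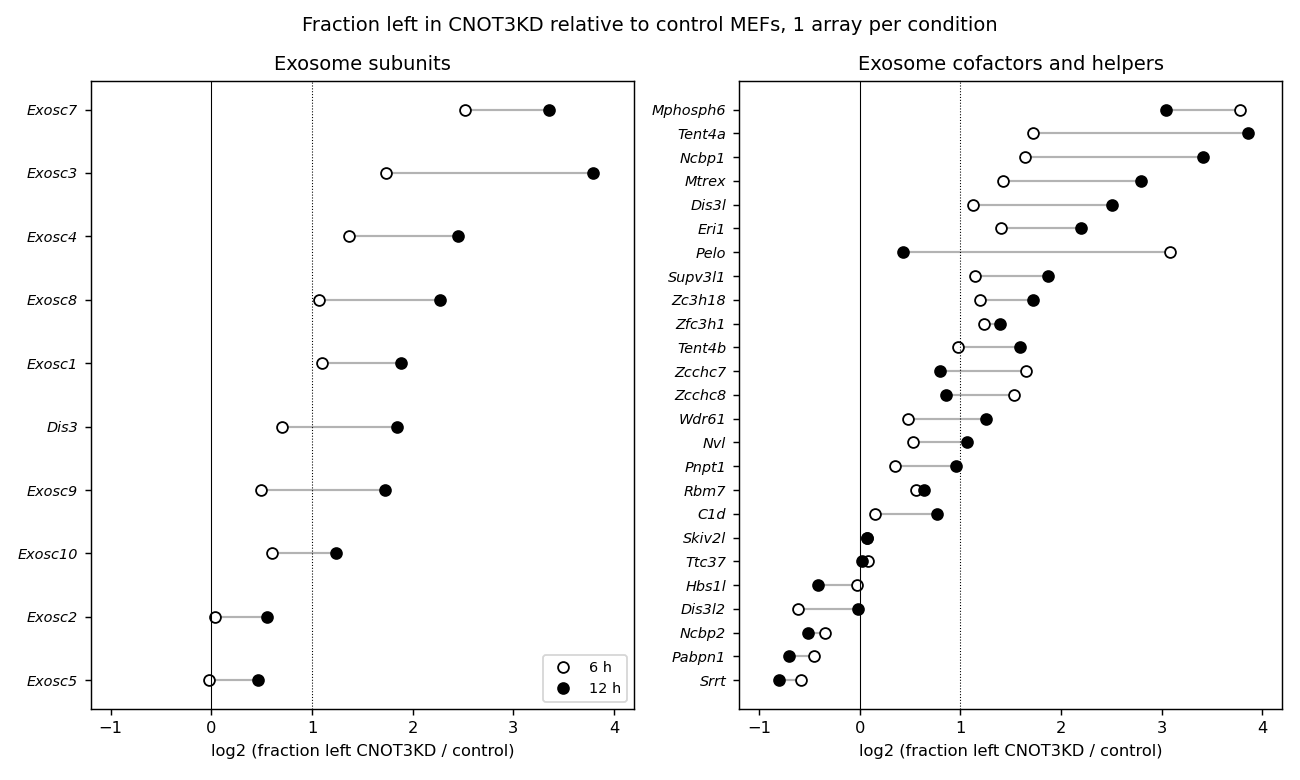
Log2 of the CNOT3KD fraction left over the control fraction left at 6 h (open circles) and 12 h (filled circles), for the 10 subunits (left) and the 25 cofactors at or above the median signal (right), sorted by the mean of both times. The dotted line marks 2 times control. Every subunit has its filled circle above 0 and to the right of its open circle, while the cofactors spread from -0.69 (Srrt) to 3.41 (Mphosph6) in the mean.

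To place the subunits among other genes, the median of their centred log2 signals over the 6 arrays was taken as a profile, and the 5 nearest of 11052 other genes by Euclidean distance were Ppp2cb, Rbl1, Hmces, Cfap20 and Mrpl17, at distances of 0.114 to 0.179. Ppp2cb encodes a catalytic subunit of protein phosphatase 2A, Rbl1 a relative of the retinoblastoma protein and Mrpl17 a protein of the mitochondrial ribosome. Ppp2cb had 3170.0, 3136 and 3169.7 at 0, 6 and 12 h in CNOT3KD MEFs, against 3247, 1827 and 842 in control MEFs. The 5 genes were picked as the nearest, so their distances are no measure of how alike the subunits are. The subunits lay 0.327 (Exosc8) to 2.20 (Exosc7) from their own median. The profile thus describes Exosc8, Exosc9 and Exosc1 best and Exosc7 and Exosc3 least.

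Cnot3 itself had 239.6, 128 and 82.9 at 0, 6 and 12 h in CNOT3KD MEFs, against 436, 193 and 198 in control MEFs, 0.549 times at 0 h. A dimmer Cnot3 probe set was 1.11 times the control signal at 0 h, and the place of either relative to the floxed exons is not known here. The paper reported depletion of CNOT3 protein by immunoblot and a significant decrease of its mRNA by qPCR in CNOT3KD MEFs. Of 10 fibroblast markers, 8 were at or above the 75th percentile on every array, with sums of 104624 to 113921 in CNOT3KD MEFs and 101536 to 166327 in control MEFs. The same held for 2 of 7 leukocyte markers (Csf1r and Lyz2), 0 of 6 epithelial and 0 of 4 endothelial markers. Summed signals of 7 leukocyte markers were 3242 to 4521 in CNOT3KD MEFs and 2221 to 4633 in control MEFs, and those of 6 epithelial markers were 1269.5 to 1505 in CNOT3KD MEFs and 508 to 701 in control MEFs. Those of 4 endothelial markers were 147 to 206 in CNOT3KD MEFs and 176 to 232 in control MEFs. The part of these in the subunit values was not tested. In such bulk RNA fewer cells of a type and less RNA per cell cannot be told apart.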

How the data were processed

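Total RNA of CNOT3KD and control MEFs at 0, 6 and 12 h of Act. D was hybridized as biotinylated cRNA to Affymetrix mouse genome arrays, 1 per condition. The deposited intensity values are linear MAS5 signals per probe set, computed by the authors. Neither the MAS5 version nor the scaling target is stated in the sources used.

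Signals under 1 were set to 1 and no scaling was added. Each gene was read at its brightest probe set, by the mean of the log2 signals of the 6 arrays. The symbols of all 19 subunit probe sets matched the mouse gene list of GRCm38.p6. Without repeats no error was computed, and no model that takes times as repeats was run, since the change with time is what was compared. Precision is limited by having 6 arrays. Named are all subunits with every probe set, Cnot3, the cofactors with the 3 highest and 2 lowest stabilizations and the highest and lowest 0 h ratio, and the 5 nearest genes. Skiv2l, Ttc37, Wdr61, Mtrex, Supv3l1, Pnpt1, Eri1 and Dis3l2 fall outside this rule and were named after their values were seen. The subunits, lists and rules were chosen with earlier results of these data known. Alternatives covered the floor, the scaling, the choice of probe set, the size limits and the times used. Python 3.11.15 with pandas 2.3.3 and numpy 2.4.6 was used, and the steps were tested on simulated data.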

Additional observations from a re-analysis of the deposited data

Results flagged for a closer look

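The signals of 4 subunit probe sets moved in opposite directions in the cultures at both times, being above the 0 h signal in CNOT3KD MEFs and below it in control MEFs. This difference between the cultures was not tested. The probe sets and their log2 stabilization were Exosc8 1428291_at with 1.67, Exosc9 1418462_at with 1.11, and Exosc10 1454021_a_at with 0.92 and 1431832_x_at with 1.11. The direction within each culture depended on the scaling. With each array divided by its median, the Exosc9 signal at 6 h was 143% of that at 0 h in CNOT3KD MEFs and 108% in control MEFs. The Exosc10 probe sets 1454021_a_at and 1431832_x_at then had 149% and 138% in CNOT3KD MEFs and 105% and 101% in control MEFs. With the ribosomal protein median as divisor, the Exosc8 signal was 99.0% and 85.0% of that at 0 h at 6 and 12 h in CNOT3KD MEFs, against 34.1% and 11.5% in control MEFs. Exosc9 had 96.3% and 92.4% in CNOT3KD MEFs, against 49.3% and 18.2% in control MEFs, and Exosc10 (1454021_a_at) had 100.5% and 86.9% in CNOT3KD MEFs, against 47.9% and 24.1% in control MEFs. The second Exosc10 probe set had 93.3% and 99.6% in CNOT3KD MEFs, against 46.3% and 20.5% in control MEFs. Stabilization itself was positive for all 4 under quantile, median and ribosomal protein scaling, with a lowest value of 0.55 for Exosc10.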

How the results depend on the processing

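Of 80 stabilization values recomputed for the 10 genes under 8 alternatives, 78 were positive. Both exceptions were Exosc5, at -0.21 after quantile normalization and -0.02 at 6 h alone. Many of these signs could not change. The higher floor and the choice by 0 h brightness left every value as it was, and median and ribosomal protein scaling raise all genes by the same amount. As deposited, 55.9% of all genes were positive, and this share was not computed under the alternatives. Quantile normalization left 3 of 10 subunits, 4 of 19 probe sets and 4 cofactors stabilized, beside 7.78% of all genes. Ribosomal protein scaling gave 7 subunits, with Exosc10 and Dis3 added, beside 19.9% of all genes, and median scaling 4, without Exosc8 (1.97 times at 6 h), beside 11.1%. Read at 12 h only, 8 subunits were stabilized, among 22.4% of all genes. Median scaling put 1 subunit, Exosc4, past 1.5-fold at 0 h. Ribosomal protein scaling put the median signal left at 12 h in control MEFs at 14.2%. It moved the median stabilization of all genes to 0.67, and quantile normalization to -0.01, beside 0.13 as deposited. Over the probe sets of Exosc8 the median stabilization was 0.62, since they disagree. The cause of these differences was not tested. With 1 array per condition no array could be left out of these ratios. The arrays of the cultures pair by time only, and a fit blocked by time was not run, since the change with time is what was compared. Among the subunits the dim probe sets, and Exosc3 in control MEFs at 12 h with 37.9, lie nearest to background, so their fractions left are the least precise. Of the cofactors with the highest stabilization, Tent4a at 12 h, with 35.1, and Mphosph6 at 6 h, with 48.8, were similarly low in control MEFs.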
